A study of Mus musculus with 10 samples.

Results

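The comparison is between B16-F10-OVA and B16-F10 cells without added cytokine. B16-F10 is a mouse melanoma cell line that grows in the C57BL/6 strain and makes pigment. B16-F10-OVA is the same line with a lentiviral vector that carries a neomycin resistance gene and ovalbumin, a model antigen from chicken egg white, under the EF1A promoter. B16-F10 is referred to as WT and its derivative as OVA. The 4 libraries were chosen by label, as the untreated libraries of each line, 2 WT and 2 OVA, out of 10 in the series. The other 6 libraries, 3 of each line cultured for 24 h with 50 ng/ml of the cytokine interferon gamma (IFN-γ), entered the fit and showed whether a difference between the lines recurred in other libraries. The question of the series is how the lines differ in their response to IFN-γ, and the untreated comparison gives their difference without it. The labels give no time of harvest for the untreated libraries. The labels do not say whether OVA is 1 clone or a pool, and a line with the vector but without ovalbumin was not analysed here. The parts of the transgene, the selection and the drift between cultures therefore cannot be told apart in any difference given here. The labels do not call the libraries of a group separate cultures, so the spread between libraries behind a p-value here may be technical. That spread was estimated over all 10 libraries of the fit, the treated ones included. Reads from the ovalbumin transgene were not analysed here.

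By way of background, 3 programs recur in what follows. The protein p53 is a transcription factor that is held low by Mdm2, a ubiquitin ligase that p53 itself induces, and that turns on genes of cell cycle arrest, DNA repair and cell death. The hypoxia-inducible factor HIF drives genes for glycolysis, lactate export and blood vessel growth when oxygen is short, and it is also set by growth conditions. Interferon-stimulated genes are switched on through STAT and IRF factors that bind a short promoter element called ISRE, and many are active at a low level without added cytokine.

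Total counts in the 4 untreated libraries ran from 17728722 to 18458563. Levels are CPM, counts brought to a common library size with TMM factors, and a difference is OVA minus WT on the log2 scale, with its standard error (SE) from edgeR's quasi-likelihood test. A gene was called at a Benjamini-Hochberg adjusted p under 0.05 over 15526 tested genes. In a principal component analysis of the 4 libraries the first component (52.5% of the variance) separated the lines, and the second (25.1%) separated the 2 WT libraries from each other. Over 12847 genes with at least 1 CPM, the SD of the log2 difference was 0.210 between the WT libraries and 0.198 between the OVA libraries. Between a WT and an OVA library it was 0.256 to 0.262, so the lines differed only a little more than replicates did. Melanocyte genes were among the most abundant in both lines, with Tyrp1 at 9621 and 9571 CPM in WT and 10041 and 10084 CPM in OVA. The 10 T cell, 10 macrophage and 10 epithelial markers summed, each list by itself, to at most 3.25 CPM in any untreated library, with Ptprc, Adgre1, Epcam and Krt8 at 0 in all 4.

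The 2 untreated lines differed in many genes and by small amounts. Of the tested genes 859 (5.53%) were called, 463 higher in OVA (2.98%) and 396 lower (2.55%). The median fold among them was 1.22, with quartiles of 1.15 and 1.38, and 715 of the 859 (83.2%) differed by less than 1.5-fold. At least 2-fold differences were found for 43 genes higher in OVA (0.277%) and 20 lower (0.129%). In all 859 the 2 OVA libraries lay on one side of both WT libraries, which was also so for 49.7% of all tested genes. The median log2 difference over all tested genes was 0.0070. The count rests on all 4 libraries. It was 350 without WT replicate 1, 364 without WT replicate 2, 378 without OVA replicate 1 and 350 without OVA replicate 2, with no gene called in the opposite direction.

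**Figure D1:**
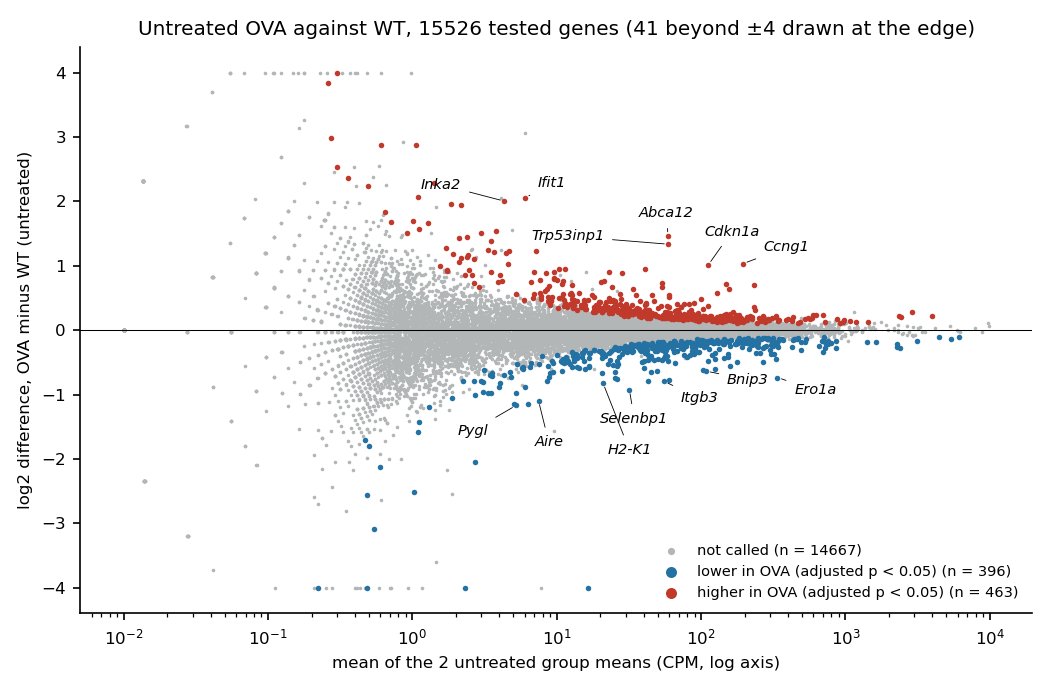
Log2 difference between untreated OVA and WT (vertical axis) against the mean level of the 2 groups in CPM (horizontal log axis) for 15526 tested genes, with 463 called higher in red and 396 called lower in blue. Most called genes lie close to 0, and Trp53inp1, Ccng1, Cdkn1a and Abca12 stand apart among the abundant genes that were higher, Ero1a and Itgb3 among those that were lower.

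Most targets of p53 were higher in OVA. Of 26 listed genes 22 were tested (Fas, Gdf15, Pmaip1 and Cd80 were too low), and 15 of the 22 were called higher and 0 lower, against 2.98% and 2.55% of all genes. DESeq2 and limma-voom also called 0 lower, and 0 were lower at an unadjusted p under 0.05. In the lists that follow, DESeq2 and limma-voom called 0 wherever edgeR did, and so did an unadjusted p under 0.05 unless its count is given. In bulk RNA a difference in every cell and a difference in the share of cells that express a gene cannot be told apart. The median log2 difference of the 22 was 0.46, and all 22 were above 0. Trp53inp1 (ENSMUSG00000028211), a stress protein that acts in autophagy and cell death, stood at 32.96 and 34.4 CPM in WT and 84.5 and 85.6 CPM in OVA (log2 difference 1.34, SE 0.050, adjusted p = 1.09e-10). Ccng1 (ENSMUSG00000020326), cyclin G1, stood at 129.8 and 126 CPM in WT and 261 and 263 CPM in OVA (log2 difference 1.03, SE 0.042, adjusted p = 1.60e-10). Cdkn1a (ENSMUSG00000023067), the cyclin-dependent kinase inhibitor p21, stood at 74.7 and 73.8 CPM in WT and 152 and 148 CPM in OVA (log2 difference 1.02, SE 0.044, adjusted p = 2.94e-10). Each of these genes was at least 2-fold higher in OVA, and the libraries of a line lay close together and far from the other line. Zmat3, an RNA-binding p53 target, had 108 and 117 CPM in WT and 190.0 and 183 CPM in OVA (log2 difference 0.72, SE 0.045, adjusted p = 4.09e-08). Mdm2, the inhibitor of p53, had 75.03 and 76.7 CPM in WT and 99.7 and 104 CPM in OVA (log2 difference 0.42, SE 0.042, adjusted p = 8.98e-06). The gene of p53 itself, Trp53, differed by less, with 142 and 138 CPM in WT and 159 and 161 CPM in OVA (log2 difference 0.19, SE 0.043, adjusted p = 0.0143), and its call was lost when any 1 of the 4 untreated libraries was left out (adjusted p up to 0.148).

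The other called p53 targets were Ei24, Bax, Sesn2, Aen, Ptp4a3, Phlda3, Psrc1, Plk2 and Btg2, with log2 differences from 0.22 to 1.22. They include a pore-forming death protein (Bax), a sestrin that restrains growth signalling (Sesn2) and an antiproliferative cofactor (Btg2). Btg2 was at 2.76 and 1.62 CPM in WT and 5.15 and 5.08 CPM in OVA and was not called without WT replicate 2, OVA replicate 1 or OVA replicate 2 (adjusted p up to 0.122). Not called were Rrm2b, Sesn1, Polk, Bbc3, Dcxr, Perp and Eda2r, with log2 differences from 0.032 to 1.32. The summed level of the tested targets was 1056 and 1055 CPM in WT and 1575 and 1584 CPM in OVA. The count of called targets was 12 to 14 without 1 of the untreated libraries. After IFN-γ, in other libraries, 14 of the 15 were again called higher, and 19 of the 22 tested targets in all (6.36% of all genes were called higher there). Cdkn1a then differed by 0.89 (adjusted p = 5.62e-11) and Trp53inp1 by 1.13 (adjusted p = 1.04e-11).

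The promoters of p53 targets were searched for 1 copy of the p53 decamer, which is only a part of a full p53 binding site. The windows are the 250 bases before the start of the RefSeq transcript in GRCm38.p6, an older build than the GRCm39 of the counts, matched by symbol. Of 14618 tested symbols 10173 had such a window, and the p53 consensus decamer (both strands) was found in 5.97% of them. It was found in 7 of the 17 tested p53 targets with a window (41.2%), in 6 of 12 that were called and in 1 of 5 that were not. In Ccng1 (chr11:40755287-40755536, minus strand) and Mdm2 (chr10:117710759-117711008, minus strand) the decamer is in capitals and begins 185 and 186 bases before the start. It overlaps no match of the 2 other motifs described here, and a match of letters does not show that a factor binds.
Ccng1: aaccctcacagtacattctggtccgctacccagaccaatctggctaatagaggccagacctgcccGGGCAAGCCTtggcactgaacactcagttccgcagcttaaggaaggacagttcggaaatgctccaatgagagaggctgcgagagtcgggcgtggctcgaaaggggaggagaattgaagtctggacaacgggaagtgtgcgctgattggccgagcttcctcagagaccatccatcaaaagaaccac
Mdm2: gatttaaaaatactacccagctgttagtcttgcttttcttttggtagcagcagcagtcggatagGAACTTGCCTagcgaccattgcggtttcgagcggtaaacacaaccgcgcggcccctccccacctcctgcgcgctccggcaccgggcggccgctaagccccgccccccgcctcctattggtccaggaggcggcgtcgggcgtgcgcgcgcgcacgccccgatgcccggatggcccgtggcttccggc

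Most hypoxia genes were lower in OVA. Of 23 listed members 22 were tested (Stc2 was too low), and 15 were called lower and 0 higher, against 2.55% and 2.98% of all genes, with a median log2 difference of −0.26. Ero1a (ENSMUSG00000021831), an oxidase that forms disulfide bonds in the endoplasmic reticulum, stood at 416 and 429 CPM in WT and 255 and 252 CPM in OVA (log2 difference −0.74, SE 0.034, adjusted p = 6.33e-10). Bnip3 (ENSMUSG00000078566), a mitophagy receptor, stood at 135 and 129 CPM in WT and 85.3 and 84.4 CPM in OVA (log2 difference −0.64, SE 0.043, adjusted p = 8.39e-08). Ndrg1, a stress-responsive gene used as a hypoxia marker, stood at 78.4 and 72.8 CPM in WT and 45.2 and 43.7 CPM in OVA (log2 difference −0.77, SE 0.059, adjusted p = 3.75e-07). In all of these genes both OVA libraries lay well below both WT libraries. Vegfa, the vascular growth factor, had 97.6 and 92.3 CPM in WT and 71.3 and 73.3 CPM in OVA (log2 difference −0.39, SE 0.044, adjusted p = 3.13e-05). Carbonic anhydrase Car9 was low in both lines, at 7.45 and 8.18 CPM in WT and 3.51 and 4.98 CPM in OVA (log2 difference −0.88, SE 0.17, adjusted p = 0.00583), and was not called without WT replicate 2 or OVA replicate 1 (adjusted p up to 0.102). Adm, the peptide hormone adrenomedullin, was at 4.97 and 5.38 CPM in WT and 2.79 and 3.08 CPM in OVA (log2 difference −0.81, SE 0.19, adjusted p = 0.0173) and lost its call without any 1 of the 4 libraries and with DESeq2 (adjusted p up to 0.132).

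The other called hypoxia genes were Higd1a, Bhlhe40, P4ha2, Egln1, Pdk1, Bnip3l, Mxi1, Ak4 and Pfkfb3, from −0.49 to −0.21. Among them are the oxygen sensor Egln1, which marks HIF for decay, and Pdk1, a kinase that limits the entry of pyruvate into the citric acid cycle. The genes of the HIF alpha subunits were not called, with log2 differences of −0.012, adjusted p = 0.912 for Hif1a and −0.074, adjusted p = 0.771 for Epas1. The count of 15 fell to 9 without OVA replicate 2 and was 10 without each of the other 3 untreated libraries. After IFN-γ all 15 were again called lower, and 18 of 22 in all (7.99% of all genes were called lower there). Bnip3 then differed by −1.24, and the change of its difference was itself called (−0.60, SE 0.057, adjusted p = 6.75e-05).

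Glycolysis and lactate export went the same way and by smaller amounts. Of 21 tested members 17 were called lower and 0 higher, against 2.55% and 2.98% of all genes, with a median of −0.22, and all 21 were below 0. Slc16a3, the lactate exporter MCT4, stood at 193 and 186 CPM in WT and 127 and 130.1 CPM in OVA (log2 difference −0.56, SE 0.038, adjusted p = 8.41e-08). Pfkp, the platelet form of phosphofructokinase, stood at 201 and 212 CPM in WT and 149.7 and 144 CPM in OVA (log2 difference −0.49, SE 0.041, adjusted p = 1.21e-06). Hk2, the inducible hexokinase, stood at 354 and 363 CPM in WT and 281 and 271 CPM in OVA (log2 difference −0.38, SE 0.038, adjusted p = 1.24e-05). Gpi1, glucose-6-phosphate isomerase, stood at 938 and 940.0 CPM in WT and 772 and 779 CPM in OVA (log2 difference −0.28, SE 0.030, adjusted p = 2.56e-05). The other called members ran from −0.11 (Eno1) to −0.48 (Aldoc) and include the glucose transporter Slc2a1 (−0.22), Ldha (−0.18), Pkm (−0.17) and Gapdh (−0.13), so each step from glucose uptake to lactate export, except that of phosphoglycerate mutase, held a gene that was lower in OVA. Not called were Pgam1, Ldhb, Slc16a1 and Slc2a3. The summed level of the 21 genes was 25639 and 25168 CPM in WT and 22402 and 22680 CPM in OVA. The count was 11 without WT replicate 1, and 12 to 14 without 1 of the other 3 libraries. After IFN-γ 16 of the 17 were again called lower (7.99% of all genes). The 30 tested nuclear genes of oxidative phosphorylation had 0 calls under edgeR, against 5.53% of all genes called in either direction. At an unadjusted p under 0.05, 0 of the 30 were higher and 5 lower, and the median of the 30 was −0.048.

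The core of the hypoxia response element, ACGTG on either strand, was looked for in the same 250 base windows. It was present in 22.2% of all 10173 windows, in 10 of 18 tested hypoxia genes (55.6%) and in 8 of 20 glycolysis genes (40%). It was in 6 of 12 called and 4 of 6 uncalled hypoxia genes. The windows of Car9 (chr4:43506776-43507025, plus strand) and Ero1a (chr14:45318573-45318822, minus strand) are printed for 2 members lower in OVA, with the core in capitals, 18 and 63 bases before the start and outside any ISRE or p53 match.
Car9: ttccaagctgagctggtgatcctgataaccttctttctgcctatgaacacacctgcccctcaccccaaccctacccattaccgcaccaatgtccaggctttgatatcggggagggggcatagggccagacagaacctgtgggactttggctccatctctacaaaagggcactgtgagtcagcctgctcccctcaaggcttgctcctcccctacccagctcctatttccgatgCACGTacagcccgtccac
Ero1a: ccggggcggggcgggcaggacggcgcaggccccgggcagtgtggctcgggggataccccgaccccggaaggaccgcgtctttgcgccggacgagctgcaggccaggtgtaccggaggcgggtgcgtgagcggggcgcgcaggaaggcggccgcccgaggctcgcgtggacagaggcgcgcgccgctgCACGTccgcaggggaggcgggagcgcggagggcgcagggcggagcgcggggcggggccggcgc

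A part of the antiviral interferon-stimulated genes was higher in OVA without any added interferon. Of 44 listed symbols 42 were tested (Ifitm1 was too low, and Ddx58 is an older symbol of Rigi), and 16 were called higher and 0 lower, against 2.98% and 2.55% of all genes, and the median log2 difference was 0.40. Ifit1 (ENSMUSG00000034459), which binds viral RNA without 2′-O methylation, stood at 1.82 and 2.86 CPM in WT and 9.70 and 9.79 CPM in OVA (log2 difference 2.06, SE 0.14, adjusted p = 1.15e-07). Ifit3, its partner, stood at 2.60 and 2.80 CPM in WT and 5.92 and 6.49 CPM in OVA (log2 difference 1.20, SE 0.17, adjusted p = 3.03e-04). Rigi, the cytosolic RNA sensor RIG-I, stood at 6.68 and 7.34 CPM in WT and 13.6 and 13.6 CPM in OVA (log2 difference 0.95, SE 0.092, adjusted p = 6.92e-06). Rsad2, viperin, which makes a chain-terminating nucleotide, stood at 11.2 and 11.5 CPM in WT and 17.04 and 16.9 CPM in OVA (log2 difference 0.59, SE 0.065, adjusted p = 3.08e-05). The libraries of the lines did not overlap in any of these, which was so for all 859 called genes and for 49.7% of all tested genes. The levels of Ifit1, Ifit3, Rigi and Rsad2 were low, and none of them passed 20 CPM in untreated cells. Oas1g, an oligoadenylate synthetase, was under 1 CPM in WT, with 0.221 and 0.280 CPM in WT and 1.81 and 1.95 CPM in OVA (log2 difference 2.87, SE 0.30, adjusted p = 1.73e-05). Reads of Oas1g and its near copies, and of Ifit3 and Ifit3b, may be shared between genes, since how multiply mapped reads were counted is not given in the sources used here.

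The other called members were Herc6, Trim25, Parp9, Ifitm3, Lgals3bp, Bst2, Parp14, Ifih1, Ifit3b, Oas1a and Trim30a, from 0.19 to 2.29. The antiviral list was not uniform. Mx1 (0.21, adjusted p = 0.777), Isg15 (0.80, adjusted p = 0.159), Ifit2 (0.13, adjusted p = 0.0872) and Eif2ak2 (0.17, adjusted p = 0.0979) were among the 26 that did not pass the test. The summed level of the 42 genes was 662 CPM in both WT libraries and 755 CPM in both OVA libraries. The count of 16 was 10 without WT replicate 2, 11 without WT replicate 1 or OVA replicate 1, and 13 without OVA replicate 2. After IFN-γ 30 of the 42 were called higher and 1 lower (6.36% and 7.99% of all genes), and 14 of the 16 recurred. Ifit1 then stood at 229.5 ± 4.34 CPM in WT and 324 ± 5.78 CPM in OVA (mean ± SD, n = 3), a difference of 0.50 (adjusted p = 2.23e-08), and the difference itself was smaller than in untreated cells (−1.56, SE 0.15, adjusted p = 6.75e-05).

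The ISRE, searched on both strands as 2 GAAA boxes with any 2 bases between them, was found in 2.75% of all 10173 windows. It was in 11 of 31 antiviral genes with a window (35.5%), in 8 of the 13 that were called (61.5%) and in 3 of the 18 that were not (16.7%). Ifit1 (chr19:34640639-34640888, plus strand) and Ifit3 (chr19:34583279-34583528, plus strand) are shown as 2 called members with a pair of matches each, which Oas1g and Ifit3b also have. The matches are in capitals and read on the opposite strand, so TTTC stands for GAAA. They begin 104 and 85 bases before the start in Ifit1, and 156 and 122 in Ifit3, and overlap no match of the other motifs.
Ifit1: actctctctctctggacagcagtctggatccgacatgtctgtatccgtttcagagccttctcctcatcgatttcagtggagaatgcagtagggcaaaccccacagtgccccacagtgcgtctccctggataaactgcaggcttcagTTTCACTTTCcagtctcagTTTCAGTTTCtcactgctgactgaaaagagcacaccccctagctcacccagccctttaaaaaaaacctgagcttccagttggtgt
Ifit3: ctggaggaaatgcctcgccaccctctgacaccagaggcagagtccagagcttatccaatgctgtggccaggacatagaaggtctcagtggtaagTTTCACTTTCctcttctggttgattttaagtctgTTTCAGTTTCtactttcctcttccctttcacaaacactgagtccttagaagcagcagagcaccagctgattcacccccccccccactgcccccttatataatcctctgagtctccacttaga

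**Figure D2:**
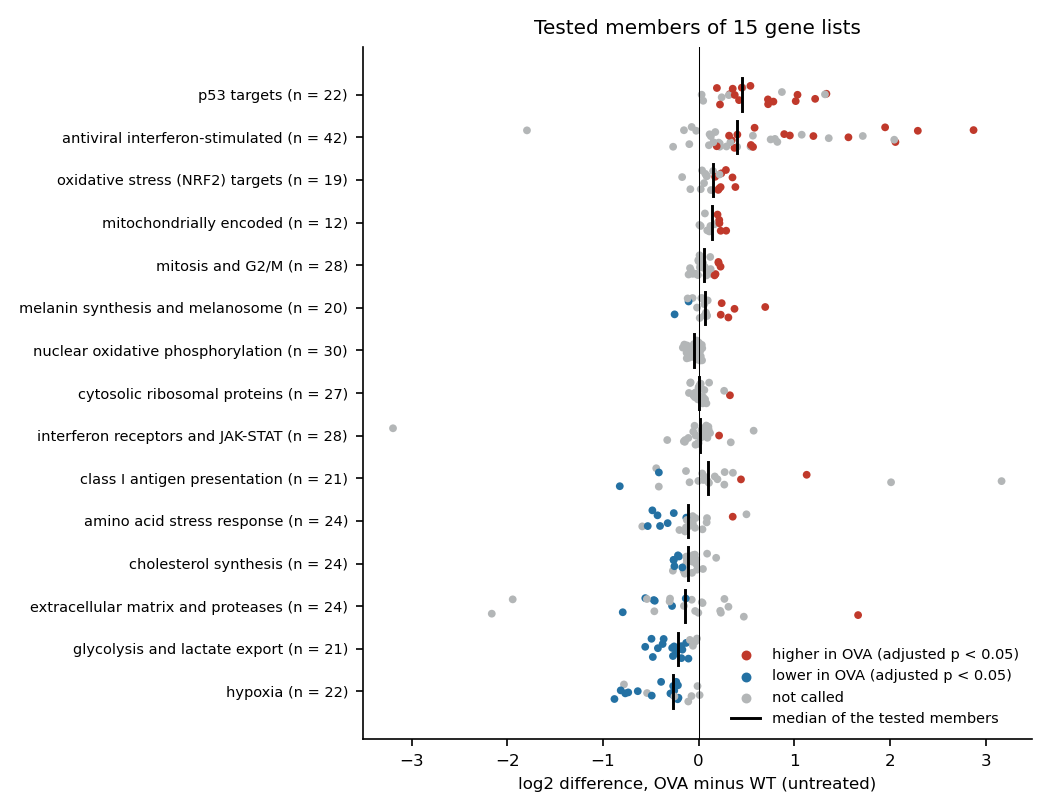
Log2 difference between untreated OVA and WT (horizontal axis) for every tested member of 15 gene lists, coloured by call, with the median as a black bar. The p53 and antiviral lists lie to the right of 0 (medians 0.46 and 0.40), the glycolysis and hypoxia lists to the left (−0.22 and −0.26).

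Genes of antigen recognition by T cells differed in both directions. H2-K1 (ENSMUSG00000061232), the class I heavy chain that presents the best known ovalbumin peptide to CD8 T cells, was lower in OVA, with 27.9 and 25.6 CPM in WT and 15.3 and 14.9 CPM in OVA (log2 difference −0.82, SE 0.070, adjusted p = 1.34e-06). The second classical heavy chain, H2-D1, was at 55.4 and 49.6 CPM in WT and 50.9 and 53.9 CPM in OVA (log2 difference −0.0029, SE 0.053, adjusted p = 0.991). The shared light chain B2m was at 124 and 119.7 CPM in WT and 123 and 129 CPM in OVA (log2 difference 0.049, SE 0.039, adjusted p = 0.552). H2-K1 thus differed between lines in which H2-D1 and B2m were not called. Of the 21 tested class I genes 2 were called higher and 2 lower, against 2.98% and 2.55% of all genes. H2-Q4, a nonclassical heavy chain, was lower, with 13.9 and 12.5 CPM in WT and 9.64 and 10.1 CPM in OVA (log2 difference −0.42, SE 0.080, adjusted p = 0.00501) and lost its call without WT replicate 1 or OVA replicate 1 (adjusted p up to 0.130). The peptide transporter Tap1 was higher, at 1.38 and 1.62 CPM in WT and 3.83 and 2.76 CPM in OVA (log2 difference 1.13, SE 0.19, adjusted p = 0.00170), and was not called without OVA replicate 1 (adjusted p = 0.0692). The trimming peptidase Erap1 was higher, at 11.2 and 10.9 CPM in WT and 15.7 and 14.3 CPM in OVA (log2 difference 0.44, SE 0.080, adjusted p = 0.00291), with an adjusted p of 0.0517 without OVA replicate 1. Reads of H2 genes can be shared with near copies, so these values are uncertain. After IFN-γ H2-K1 was still lower in OVA by a smaller margin (−0.22, adjusted p = 7.44e-05), and the change of the difference was called (0.60, SE 0.076, adjusted p = 0.00105).

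Receptors and kinases of the IFN-γ pathway did not pass the test. Ifngr1 was at 20.8 and 19.05 CPM in WT and 20.5 and 20.7 CPM in OVA (log2 difference 0.048, SE 0.075, adjusted p = 0.805), and Ifngr2 at 47.98 and 49.7 CPM in WT and 51.98 and 52.8 CPM in OVA (log2 difference 0.10, SE 0.055, adjusted p = 0.349). Jak1 had a log2 difference of −0.032, adjusted p = 0.738 and Jak2 of 0.051, adjusted p = 0.718. The transcription factor Irf1, induced by STAT dimers, had −0.042, adjusted p = 0.884. The feedback inhibitor Socs1 and the class I regulator Nlrc5 were under 1 CPM in every untreated library and were not called (adjusted p = 0.517 and 0.208). Of 28 tested genes of interferon receptors and JAK-STAT signalling, 27 were not called and 1 was called higher (3.57%), near the 2.98% of all genes (0 without any 1 of the 4 untreated libraries or with limma-voom), and 0 were lower (1 at an unadjusted p under 0.05).

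Among ligands that immune cells read, Cxcl10, a chemokine for T cells, was higher in OVA, with 5.13 and 4.54 CPM in WT and 8.76 and 9.36 CPM in OVA (log2 difference 0.90, SE 0.11, adjusted p = 1.03e-04). It was the single call among 14 tested chemokines and cytokines (7.14%, against 2.98% of all genes called higher). In that list 1 was lower at an unadjusted p under 0.05. The checkpoint ligand gene Cd274 was at 8.01 and 8.40 CPM in WT and 9.59 and 7.41 CPM in OVA (log2 difference 0.050, SE 0.12, adjusted p = 0.881), with overlapping libraries. The NK cell ligand Ulbp1 was higher (0.49, SE 0.11) and the inhibitory ligand Cd47 lower (−0.21, SE 0.049), and the call of Ulbp1 was lost without any 1 of the 4 untreated libraries and with DESeq2 (adjusted p up to 0.103), that of Cd47 without WT replicate 1, OVA replicate 1 or OVA replicate 2 (adjusted p up to 0.170). Lgals3, galectin 3, was lower, with 93.5 and 89.5 CPM in WT and 69.8 and 67.9 CPM in OVA (log2 difference −0.41, SE 0.051, adjusted p = 8.39e-05). Of the interferon-inducible GTPases, which act against vacuolar pathogens, 17 entries were tested and 3 were higher (17.6%, against 2.98% of all genes). Irgm1 stood at 10.5 and 9.41 CPM in WT and 15.1 and 14.4 CPM in OVA (log2 difference 0.56, SE 0.077, adjusted p = 2.44e-04). Irgm2 and Gbp7 stood under 4 CPM and lost their calls without 1 of several untreated libraries (adjusted p up to 0.0782 and 0.154), and Gbp7 was called lower in OVA after IFN-γ (−0.11, adjusted p = 0.0256). Genes of NF-κB signalling (16 tested) and class II presentation (9 tested) had 0 calls under edgeR, against 5.53% of all genes called in either direction. For lists of this size 0 calls is near that share. In the NF-κB list 1 gene was higher and 2 lower at an unadjusted p under 0.05.

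**Figure D3:**
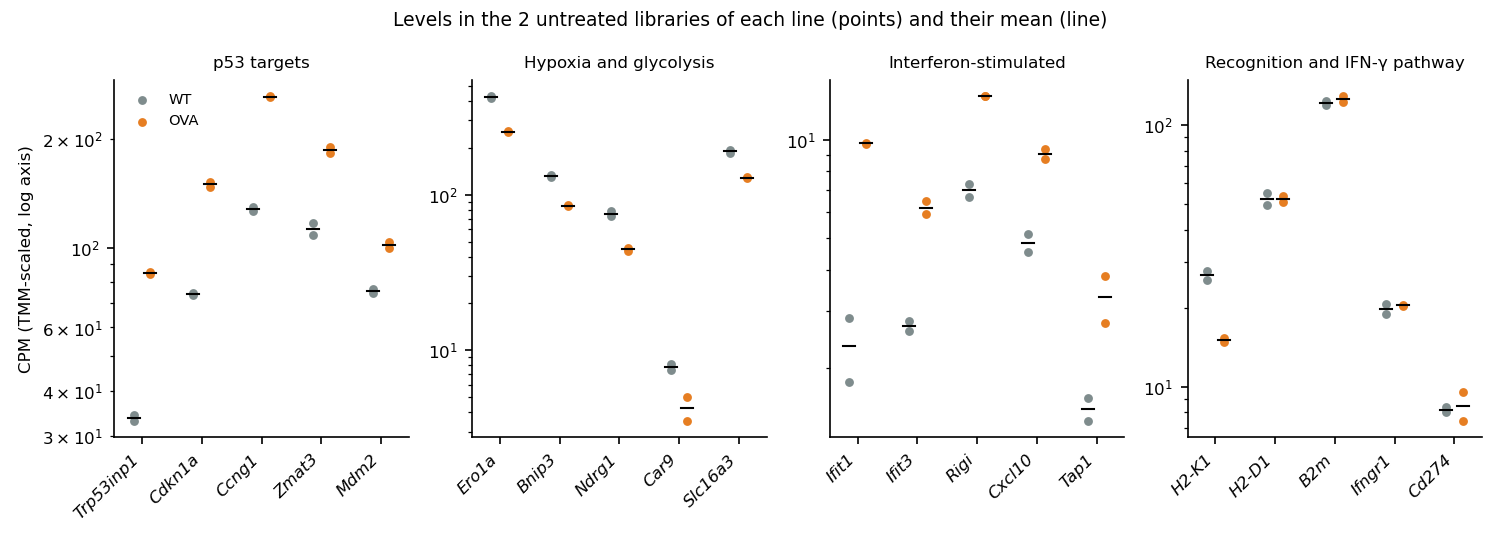
Level in CPM (log axis, scale set per panel) of 20 genes in the 2 untreated libraries of WT (grey) and OVA (orange), with a black line at each mean. The p53 targets and interferon-stimulated genes are higher in both OVA libraries, the hypoxia and glycolysis genes and H2-K1 lower, while the libraries of the lines overlap in H2-D1, B2m, Ifngr1 and Cd274.

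Genes of the oxidative stress response driven by NRF2 were higher in part. Of 19 tested targets 8 were called higher (Prdx1, Gclc, Nfe2l2, Pgd, Gclm, Gsr, Hmox1 and Osgin1, from 0.17 to 0.38) and 0 lower, against 2.98% and 2.55% of all genes. Hmox1, heme oxygenase, stood at 61.01 and 65.6 CPM in WT and 77.9 and 83.9 CPM in OVA (log2 difference 0.35, SE 0.061, adjusted p = 0.00195). Gsr, glutathione reductase, stood at 75.9 and 73.2 CPM in WT and 90.00 and 91.6 CPM in OVA (log2 difference 0.29, SE 0.044, adjusted p = 7.83e-04), and Pgd, an NADPH-forming enzyme of the pentose phosphate pathway, at 169 and 169 CPM in WT and 195 and 202 CPM in OVA (log2 difference 0.23, SE 0.039, adjusted p = 0.00170). The common target Nqo1 was not called (−0.17, adjusted p = 0.796). The count of 8 was 4 without WT replicate 1, WT replicate 2 or OVA replicate 2, and 5 without OVA replicate 1.

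Mitochondrially encoded genes, which are transcribed from the mitochondrial genome and code for parts of the respiratory chain, had 5 called higher of 12 tested (mt-Nd5, mt-Co3, mt-Cytb, mt-Atp8 and mt-Atp6, from 0.20 to 0.29). These were 41.7% of the genes tested in the list, against 2.98% of all genes. Their summed level was 28413 and 28569 CPM in WT and 31280 and 31932 CPM in OVA. These calls were weak: 0 were left without WT replicate 1 or without OVA replicate 2, 1 without WT replicate 2, and 2 without OVA replicate 1 or with DESeq2. In the treated libraries 0 of the 5 were called higher and mt-Nd5 was called lower (−0.23, adjusted p = 8.10e-04).

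Some genes of amino acid stress and cholesterol synthesis were lower in untreated OVA. Of 24 tested genes of the amino acid response, which is driven by ATF4, 7 were called lower and 1, the shared p53 target Sesn2, higher, against 2.55% and 2.98% of all genes. Ddit4, an inhibitor of mTORC1 that also responds to hypoxia, stood at 70.2 and 67.1 CPM in WT and 48.3 and 49.9 CPM in OVA (log2 difference −0.48, SE 0.054, adjusted p = 3.08e-05). Trib3, a pseudokinase of this response, stood at 67.1 and 61.7 CPM in WT and 48.1 and 49.3 CPM in OVA (log2 difference −0.40, SE 0.055, adjusted p = 2.44e-04), and Aldh1l2, a mitochondrial folate enzyme, at 63.1 and 63.1 CPM in WT and 45.9 and 47.8 CPM in OVA (log2 difference −0.43, SE 0.058, adjusted p = 2.07e-04). Atf4 itself was not called (−0.038, adjusted p = 0.680). After IFN-γ 4 of the 7 lower genes were called lower again and 1 was called higher. In the treated libraries 7 of the 24 were called higher and 5 lower, against 6.36% and 7.99% of all genes. The median of this list was −0.11 untreated and 0.035 after IFN-γ, so its direction did not recur. Of 24 tested cholesterol synthesis genes 6 were called lower (Lss, Nsdhl, Insig1, Msmo1, Dhcr7 and Srebf2, from −0.17 to −0.26) and 0 higher (1 at an unadjusted p under 0.05), against the same 2.55% and 2.98%, and 3 of the 24 were above 0. Insig1, the sterol-sensing retention protein, was at 297 and 311 CPM in WT and 256 and 254 CPM in OVA (log2 difference −0.25, SE 0.033, adjusted p = 1.45e-04). The cholesterol count was 3 without WT replicate 1 or OVA replicate 2.

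Cell cycle genes showed small differences. Of 29 tested G1/S and replication genes 3 were called higher and 2 lower (10.3% and 6.9%, against 2.98% and 2.55% of all genes). The kinase Cdk2 was lower, with 791 and 777 CPM in WT and 672 and 686 CPM in OVA (log2 difference −0.21, SE 0.031, adjusted p = 5.53e-04). The cyclins Ccnd1 (0.17, SE 0.036), Ccnd3 (0.20, SE 0.042) and Ccne2 (0.32, SE 0.069) were higher, and each lost its call without some of the 4 untreated libraries (adjusted p up to 0.151, 0.170 and 0.125). Of 28 mitotic genes 5 were called higher (Hmmr, Kif20a, Plk1, Ccnb1 and Cdc20, from 0.17 to 0.23), a count that was 0 without WT replicate 2, 1 without OVA replicate 1 and 2 without WT replicate 1 or OVA replicate 2. The proliferation marker Mki67 was at 679 and 719 CPM in WT and 660.5 and 654 CPM in OVA (log2 difference −0.090, SE 0.046, adjusted p = 0.324). The share of mitotic genes called higher in untreated OVA was 17.9%, against 2.98% of all genes. In the treated libraries 0 of the 28 mitotic genes were called higher in OVA and 15 lower, against 6.36% and 7.99% of all genes. The median of the list was 0.056 untreated and −0.11 after IFN-γ, so the small untreated difference did not recur and the direction of the list turned.

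Pigment cell identity was close in both lines. Mitf, the master regulator of melanocytes, was at 582 and 564 CPM in WT and 584 and 594 CPM in OVA (log2 difference 0.041, SE 0.032, adjusted p = 0.549), and Sox10, which acts upstream of it, at 421 and 402 CPM in WT and 439 and 426 CPM in OVA (log2 difference 0.072, SE 0.032, adjusted p = 0.234). The melanin enzymes Tyr (0.037, adjusted p = 0.603) and Dct (−0.016, adjusted p = 0.807) and the fibril protein Pmel (0.063, adjusted p = 0.161) were not called. Of 20 tested genes of melanin and the melanosome 5 were higher and 2 lower, against 2.98% and 2.55% of all genes. With DESeq2 4 of them were called higher, and fewer than 5 were higher when any 1 of the 4 untreated libraries was left out. Trpm1, a cation channel and MITF target, stood at 180.0 and 177 CPM in WT and 286 and 293 CPM in OVA (log2 difference 0.70, SE 0.037, adjusted p = 5.01e-09), the largest difference of the list. Mc1r, the melanocortin receptor, was lower, with 267 and 259.8 CPM in WT and 219 and 223 CPM in OVA (log2 difference −0.25, SE 0.034, adjusted p = 2.07e-04). Mlana was higher, with 547 and 540.2 CPM in WT and 646 and 639 CPM in OVA (log2 difference 0.24, SE 0.046, adjusted p = 0.00430), with an adjusted p of 0.0541 without WT replicate 2. Of 13 lineage regulators 0 were higher (1 at an unadjusted p under 0.05) and 2 were lower (15.4%, against 2.55% of all genes). These were Tfap2a, at 115 and 118 CPM in WT and 99.3 and 98.4 CPM in OVA (log2 difference −0.24, SE 0.039, adjusted p = 0.00120), and Sox5 (−0.33, SE 0.089). The call of Sox5 was lost without any 1 of the untreated libraries and with DESeq2.

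Some matrix and integrin genes were lower in OVA. Of 24 tested matrix and protease genes 6 were lower and 1, Spp1, was higher, against 2.55% and 2.98% of all genes. The median log2 difference of the list was −0.14. Loxl2, an enzyme that crosslinks collagen, stood at 53.7 and 54.3 CPM in WT and 31.4 and 30.9 CPM in OVA (log2 difference −0.79, SE 0.056, adjusted p = 1.34e-07). Timp3, a protease inhibitor, stood at 31.6 and 30.4 CPM in WT and 20.98 and 21.1 CPM in OVA (log2 difference −0.56, SE 0.080, adjusted p = 3.97e-04), and Col5a1, a fibrillar collagen chain, at 62.8 and 61.4 CPM in WT and 45.8 and 44.6 CPM in OVA (log2 difference −0.46, SE 0.063, adjusted p = 2.77e-04). All 6 were called lower again after IFN-γ, where 7.99% of all genes were called lower. Of all genes lower in untreated OVA, 74.2% were called lower again. Spp1, osteopontin, was at 0.497 and 0.728 CPM in WT and 1.48 and 2.43 CPM in OVA, and the count of 1 higher gene was 0 without WT replicate 1 or OVA replicate 2. Of 15 tested integrins 3 were lower and 0 higher (1 at an unadjusted p under 0.05), against 2.55% and 2.98% of all genes. Itgb3 (ENSMUSG00000020689), the beta 3 chain of the vitronectin receptor, stood at 70.4 and 70.1 CPM in WT and 38.7 and 42.3 CPM in OVA (log2 difference −0.79, SE 0.051, adjusted p = 6.16e-08). Itga9 had 98.6 and 104 CPM in WT and 76.2 and 80.4 CPM in OVA (log2 difference −0.37, SE 0.049, adjusted p = 1.83e-04). Itgav, the alpha chain that pairs with Itgb3, was not called (−0.028, adjusted p = 0.809).

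Growth factor receptors and their outputs differed gene by gene. Met, the receptor of hepatocyte growth factor and an abundant transcript in these cells, stood at 2624 and 2648 CPM in WT and 2154 and 2186 CPM in OVA (log2 difference −0.28, SE 0.034, adjusted p = 5.96e-05). The semaphorin coreceptor Nrp2 stood at 707 and 714 CPM in WT and 594 and 603 CPM in OVA (log2 difference −0.25, SE 0.030, adjusted p = 7.41e-05). Of the 18 tested genes of MAPK output 3 were higher and 0 lower (1 at an unadjusted p under 0.05), against 2.98% and 2.55% of all genes. The 3 were the phosphatase Dusp6 at 62.1 and 54.4 CPM in WT and 74.1 and 80.4 CPM in OVA (log2 difference 0.41, SE 0.060, adjusted p = 5.10e-04), and the ETS factors Etv5 at 2.26 and 3.36 CPM in WT and 6.57 and 6.60 CPM in OVA (log2 difference 1.23, SE 0.20, adjusted p = 0.00112) and Etv1 (0.50, SE 0.10). Etv1 was not called without WT replicate 1 or OVA replicate 1 or with DESeq2 (adjusted p up to 0.0750). Notch1 was higher, with 6.79 and 7.17 CPM in WT and 12.1 and 12.3 CPM in OVA (log2 difference 0.80, SE 0.11, adjusted p = 3.08e-04). After IFN-γ it was not called (−0.10, adjusted p = 0.293), and the change of its difference was called (−0.90, adjusted p = 0.00290). Ccn1, a matrix protein and target of YAP, was higher, with 49.9 and 48.6 CPM in WT and 71.8 and 69.3 CPM in OVA (log2 difference 0.52, SE 0.057, adjusted p = 2.87e-05) and lower in the treated libraries (−0.24, adjusted p = 0.00297). Mest, an imprinted gene, stood at 17.01 and 15.1 CPM in WT and 32.6 and 27.4 CPM in OVA (log2 difference 0.90, SE 0.093, adjusted p = 1.48e-05). The 27 tested cytosolic ribosomal protein genes had 1 call (3.7%, near the 2.98% of all genes called higher). It was Rpl5 (0.33, SE 0.077), and this call was lost without WT replicate 1, WT replicate 2 or OVA replicate 1.

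Other lists held a few calls each. The share called higher was 20% for lysosome genes, 25% for YAP targets, 11.1% for ER chaperones and 37.5% for imprinted genes. Of the growth factor receptors 18.8% were called lower. Of all genes 2.98% were called higher and 2.55% lower. Of 20 tested lysosome genes 4 were higher and 1 lower. Among them the autophagy receptor Sqstm1 stood at 646 and 636 CPM in WT and 747 and 771 CPM in OVA (log2 difference 0.24, SE 0.029, adjusted p = 6.03e-05) and the lysosomal membrane protein Lamp1 at 492 and 495 CPM in WT and 553 and 558 CPM in OVA (log2 difference 0.17, SE 0.028, adjusted p = 0.00155). The count of 4 was 2 without WT replicate 2 or OVA replicate 2. Of 16 YAP targets 4 were higher and 0 lower. The count was 2 with DESeq2, and it fell when any 1 of the untreated libraries was left out, while Ccn1 kept its call. After IFN-γ 1 of the 16 was called higher and 6 lower, against 6.36% and 7.99% of all genes. Of the 4 higher genes 2 were then called lower. The median of the YAP list was 0.075 untreated and −0.058 after IFN-γ, so its direction turned. Of 18 ER chaperone genes 2 were higher and 0 lower (1 at an unadjusted p under 0.05), and the 2 became 1 with DESeq2, limma-voom or without WT replicate 1 or OVA replicate 1, and 0 without WT replicate 2 or OVA replicate 2. Of 8 imprinted genes 3 were higher and 0 lower. Of 16 growth factor receptors 3 were lower and 0 higher, and 1 (Met) was lower without WT replicate 2 or OVA replicate 2.

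Several of the largest differences lay outside these lists. Abca12 (ENSMUSG00000050296), a lipid transporter best known from skin, stood at 31.03 and 31.7 CPM in WT and 90.5 and 82.6 CPM in OVA (log2 difference 1.46, SE 0.057, adjusted p = 1.09e-10). Inka2, an inhibitor of the kinase PAK4, stood at 1.82 and 1.62 CPM in WT and 6.96 and 6.92 CPM in OVA (log2 difference 2.01, SE 0.19, adjusted p = 6.88e-06). Ptprd, a receptor tyrosine phosphatase, had 1.77 and 2.07 CPM in WT and 5.92 and 5.30 CPM in OVA (log2 difference 1.54, SE 0.20, adjusted p = 1.32e-04), and Dglucy, D-glutamate cyclase, had 5.02 and 3.59 CPM in WT and 10.6 and 9.57 CPM in OVA (log2 difference 1.23, SE 0.15, adjusted p = 6.62e-05). Among these only Abca12 passed 20 CPM in OVA. Lower in OVA were Selenbp1, a selenium-binding methanethiol oxidase, at 43.1 and 40.3 CPM in WT and 23.2 and 20.7 CPM in OVA (log2 difference −0.92, SE 0.071, adjusted p = 4.15e-07), and Aire, the autoimmune regulator known from the thymus, at 9.50 and 10.9 CPM in WT and 4.44 and 5.08 CPM in OVA (log2 difference −1.09, SE 0.14, adjusted p = 1.25e-04). Pygl, liver glycogen phosphorylase, had 7.12 and 7.34 CPM in WT and 3.62 and 2.81 CPM in OVA (log2 difference −1.17, SE 0.15, adjusted p = 1.52e-04), and Anpep, aminopeptidase N, had 6.57 and 7.17 CPM in WT and 3.67 and 3.30 CPM in OVA (log2 difference −0.98, SE 0.16, adjusted p = 0.00152). All of these were called in the same direction after IFN-γ, with log2 differences of 1.39 for Abca12, −1.15 for Selenbp1 and −1.67 for Aire. Of all genes higher in untreated OVA 57.7% were called higher again, and of all lower ones 74.2% were called lower again.

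The predicted gene Gm43590 had the most extreme difference of the named genes, with 766 and 411 counts in WT and 0 in both OVA libraries, at least 401-fold lower when the OVA group as a whole is set to 3 counts. It also had 0 counts in all 6 treated libraries of both lines, so its WT level did not recur in treated WT, and it was not called with DESeq2 (adjusted p = 0.179). In all 26 entries had 0 counts in both untreated libraries of 1 line and at least 20 counts in the other. Most were unnamed entries, pseudogenes or predicted genes whose counts also fell to 0 in single libraries of the line that had them.

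The differences between the untreated lines largely recurred after IFN-γ, in libraries whose levels do not enter the untreated difference. Those libraries did enter the estimate of the spread that the untreated calls rest on, so the recurrence is not a fully independent check. There 2229 genes were called (14.4%), 988 higher (6.36%) and 1241 lower (7.99%). Of the 463 genes higher in untreated OVA, 267 (57.7%) were called higher again, 189 were not called and 7 were called lower. Of the 396 lower genes, 294 (74.2%) were called lower again, 101 were not called and 1 was called higher. The sign was the same in 808 of the 859. The change of the line difference with treatment was called for 53 genes (0.341% of those tested), of which 39 were among the 859. Both comparisons use the same 2 lines, so a recurrence says nothing about other lines made with the vector.

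**Figure D4:**
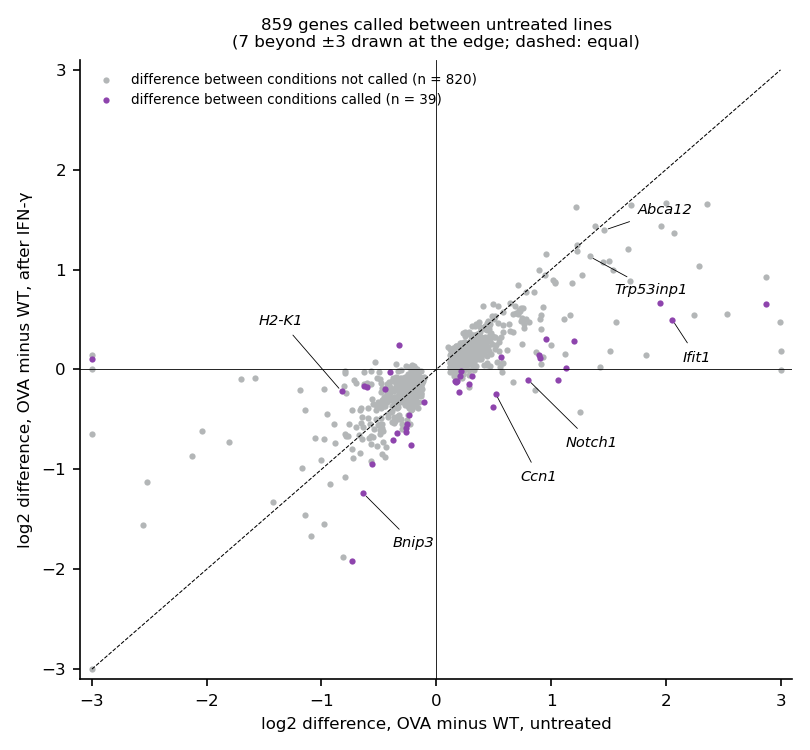
Log2 difference between OVA and WT after IFN-γ (vertical axis) against that in untreated cells (horizontal axis) for the 859 genes called untreated, with the 39 genes whose change of difference was called in purple. Most points lie near the dashed line of equal differences, while Ifit1, Notch1 and Ccn1 lie below it and H2-K1 above.

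Some called genes stood next to one called in the same direction, and how many would do so by chance was not tested. By gene ID 14288 of the 15526 tested genes (92%) matched GENCODE M21, which was used for gene order and type only. Of the called genes 449 of 463 higher and 364 of 396 lower are protein coding there. Among consecutive tested genes the longest run of calls in 1 direction was 4 (Tg, Ccn4, Ndrg1 and St3gal1, lower in OVA), followed by 2 runs of 3 (Gm20559, Gm43197 and Samd9l, and mt-Atp8, mt-Atp6 and mt-Co3, higher in OVA). There were 22 further runs of 2 higher and 16 of 2 lower, and 86 calls in all stood in runs. The calls that matched the annotation were 459 higher and 382 lower. Some runs join genes described above, such as Trp53inp1 with Ccne2, Pfkl with Aire, and Oas1g with Oas1a.

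Markers of other cell types stayed low in all 4 libraries. The 10 fibroblast markers summed to 21.5 to 25.7 CPM, with Pdgfrb the highest of them, which was called lower in OVA, with 12.7 and 12.9 CPM in WT and 10.2 and 8.60 CPM in OVA (log2 difference −0.44, SE 0.11, adjusted p = 0.0319), while Acta2, Lum and Thy1 were at 0. The call of Pdgfrb was lost without WT replicate 1, WT replicate 2 or OVA replicate 2 and with DESeq2 (adjusted p up to 0.285). The endothelial markers summed to 13.9 to 16.1 CPM, nearly all from Vwf, with Cdh5, Kdr and Tek at 0. The T cell, macrophage, epithelial and endothelial lists had 0 calls under edgeR, with 1, 2, 1 and 2 members high enough to be tested. With so few members 0 calls is near the 5.53% of all genes called in either direction.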

How the data were processed

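RNA of 10 cultured cell samples was sequenced from poly-A selected libraries, per the labels' protocols, which speak of tissue in the extraction step while the other labels name cell lines. The deposited values are raw counts of reads for each Ensembl gene, made by the authors with HISAT2 2.0.5, featureCounts 1.6.0 and GRCm39 per the submitters' processing notes. Of the annotation release and strand setting nothing is stated in the labels. Overlapping genes are therefore uncertain. Of 77175 entries 39963 had no counts. All 10 libraries were fitted as 4 group means in edgeR 4.0.16 (R 4.3.3) with TMM factors and filterByExpr, and 3 contrasts were tested by its two-sided quasi-likelihood F test with Benjamini-Hochberg adjustment over 15526 genes. The SE is the log2 difference over the square root of F. Depth was 17728722 to 19642533 counts per library. No 2 libraries of an untreated group agreed within sampling noise (chi-square per degree of freedom 3.65 for WT and 2.35 for OVA).

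The members and the 42 gene lists were chosen with earlier results of these data known, so no count supports a list independently. Named genes were 26 fixed genes, of which 2 are not reported here, then the 15 called genes that were most increased and the 15 most decreased (symbol known, no overlap, 5 CPM or more in the higher line), and per list up to 4 called members with the smallest adjusted p and at least 1 CPM. The text gives a part of these, and names other list members after their values were seen. The pipeline was tested on simulated data. Alternatives were DESeq2 1.42.0, limma-voom (limma 3.58.1), 2 other filters, upper-quartile factors, a replicate block, only the 4 untreated libraries, an adjusted p under 0.01, and each library left out. No genome of GRCm39 was used, so no coordinates of the counted genes are given.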

Additional observations from a re-analysis of the deposited data

Results flagged for a closer look

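Of 142 named genes 19 had a line difference that changed with IFN-γ by the test of that change (edgeR, adjusted p from 6.75e-05 to 0.0394). All values here are the log2 difference between OVA and WT after IFN-γ minus that in untreated cells.

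Some interferon-stimulated genes had smaller line differences after IFN-γ: Oas1g by −2.21 (adjusted p = 0.00290), Ifit1 by −1.56 (6.75e-05), Tap1 by −1.12 (0.0156), Ifit3 by −0.91 (0.0267), Cxcl10 by −0.79 (0.00398), Rigi by −0.65 (0.00431) and Irgm1 by −0.44 (0.0231). In each of these 7 the untreated level was higher in OVA. Of the 42 tested antiviral genes 6 had a called change, against 0.341% of all genes, and Rsad2 did not (−0.21, adjusted p = 0.392). The line difference of H2-K1, lower in OVA, also became smaller, from −0.82 untreated to −0.22 after IFN-γ. Its change therefore has the opposite sign (0.60, adjusted p = 0.00105).

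The hypoxia and glycolysis genes Bnip3 (−0.60, adjusted p = 6.75e-05), Slc16a3 (−0.39, 0.00130) and Hk2 (−0.33, 0.00431) were lower in untreated OVA and further below WT after IFN-γ. Trib3, lower in untreated OVA, moved by 0.38 (0.0218). Ccn1 (−0.76, 7.69e-05), Thbs1 (−0.87, 0.00338), mt-Nd5 (−0.43, 0.00312), Gbp7 (−1.17, 0.0189) and Hmmr (−0.28, 0.0247) were called higher in untreated OVA and lower in treated OVA. Notch1 (−0.90, 0.00290) and Plk1 (−0.27, 0.0394) were higher in untreated OVA and not called after IFN-γ.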

How the results depend on the processing

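The untreated counts of 463 genes higher and 396 lower kept within 1.5 times under most settings. Exceptions were 272 higher with DESeq2, 614 lower with only the 4 untreated libraries, and 200 higher and 181 lower at an adjusted p under 0.01. Leaving out 1 library gave 187 to 543 higher and 160 to 469 lower. Of at least 2-fold differences, 43 and 20, the higher count was 89 with no filter, and the lower one was 8 with DESeq2, 55 with no filter, 33 with a replicate block, 33 with only the untreated libraries and 7 at 0.01. Leaving out 1 library gave 29 to 45 and 8 to 26. Genes higher both untreated and after IFN-γ, 267, were 166 with DESeq2 and 128 at 0.01, and genes lower in both, 294, were 143 at 0.01. Leaving out 1 library gave 126 to 295 and 130 to 311. The cause was not tested, other than the fewer libraries or genes that a setting leaves. With the replicate block, which pairs libraries by number only (correlation of same-numbered deviations 0.00825 untreated), 559 genes were higher and 508 lower. No alternative called a gene in the opposite direction to the 859.

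Of 124 called named genes 65 were called under every alternative at 0.05 and 59 were lost under at least 1. The sign of an uncalled gene near 0 turned 8 times: H2-D1 with no filter (0.0017), without WT replicate 1 (0.081) and without OVA replicate 1 (0.041), Irf1 without WT replicate 1 (0.011), Ifngr1 (−0.013) and 1 other gene (0.014) without WT replicate 2, and Cd274 (−0.14) and Dct (6.62e-04) without OVA replicate 1. Over all leave-outs H2-D1 ran from −0.079 to 0.081, Irf1 from −0.091 to 0.011, Ifngr1 from −0.013 to 0.11, the unnamed gene from −0.11 to 0.014, Cd274 from −0.14 to 0.23 and Dct from −0.028 to 6.62e-04. With 2 libraries a group, small differences at low levels can be missed.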
